A study of Mus musculus with 9 samples.

Results

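The genes described here are 10 neural surface adhesion molecules: Thy1, Nfasc, Lrrn1, Lrrn2, Lrrn3, Ncam1, L1cam, Nrcam, Chl1 and Cntn1. They were taken from a table of 47729 mouse genes by their symbols, each of which matched 1 row. All 10 were among the 15696 genes with enough counts to test. RNA was sequenced from 9 mouse cell cultures, 3 of each cell type. NSC (cultures 1, 3 and 5) are primary neural stem cells of wild type genotype. LTR (cultures 1 to 3) are tumour cells derived from neural stem cells with the genotype lgT/Ras. NF1 (cultures 1 to 3) are tumour cells derived from neural stem cells with the genotype shp53, Nf1-/- and CDK4. The source of all groups is the subventricular zone, where neural stem cells persist in the forebrain, and all were kept in neural stem cell culture for up to 10 passages. The sources used here do not say how the constructs were delivered, which promoters drive them, or whether the 3 cultures of a tumour group come from separate transformations, so the spread between them may be partly technical. The set was put together with earlier results of these libraries known. Levels and fold changes of the 10 genes are therefore given as a description, with no p-value.

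These genes encode proteins that sit on the surface of neural cells and hold them to each other or to matrix. Thy1 is a small glycoprotein with a single immunoglobulin domain and a lipid (GPI) anchor, known from neurons, T cells and fibroblasts. L1cam, Nrcam, Nfasc and Chl1 form the L1 family, transmembrane proteins with immunoglobulin and fibronectin domains that couple to the cytoskeleton through ankyrins. Ncam1 binds itself on neighbouring cells and can carry polysialic acid. Cntn1 is a GPI-anchored contactin that pairs with neurofascin, the product of Nfasc, at the junctions of axon and glia. Lrrn1, Lrrn2 and Lrrn3 encode transmembrane proteins with leucine-rich repeats, whose binding partners are less well known.

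Total counts ran from 28600479 to 57231024 per library, and 3 counts correspond to 0.0541 to 0.114 CPM (counts scaled to library size with TMM factors, which correct for differences in composition). Total Nf1 RNA, the gene named in the NF1 genotype, was 59, 97.2 and 40.1 CPM in NF1, 80, 40.3 and 58 in LTR and 110, 82.5 and 114 in NSC. The difference between NF1 and NSC did not pass the test (edgeR adjusted p = 0.205, log2 -0.64 ± 0.35), and the deleted exons are not known here, so this does not check the label. NF1 2 stood apart from NF1 1 and NF1 3 in several members. Trp53, the gene that a shp53 label names, was higher in NF1 (217, 151 and 221 CPM) than in NSC (107, 114 and 101), with a log2 difference of 0.87 ± 0.2 (edgeR adjusted p = 0.0141), which goes against a lower Trp53 RNA level. The NF1 cultures are therefore those labelled NF1 throughout. In LTR, Trp53 was at 223, 281 and 255 CPM. Hras, one of the Ras genes, measured 72.2, 94.4 and 77.4 CPM in NSC, 92.3, 165 and 104 in LTR and 122, 167 and 151 in NF1. Cdk4 measured 795 and 1124 CPM in NF1 1 and NF1 3 but 393 in NF1 2, inside the NSC range of 325 to 456. In LTR, whose label does not name CDK4, it measured 1015, 935 and 1020 CPM. Its difference from NSC passed in LTR (log2 1.41 ± 0.35, edgeR adjusted p = 0.0135). It did not pass in NF1 (log2 1.05 ± 0.34, edgeR adjusted p = 0.053), so the Cdk4 level does not check the label. Stem cell identity was checked on 10 markers, whose CPM summed to between 13300 and 14200 in NSC, between 6810 and 12600 in LTR and between 11200 and 13500 in NF1. The file headers give lane L001 to the NSC libraries and lane L007 to all tumour libraries, so the group and the lane cannot be told apart where tumour cells are compared with NSC.

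Sequences upstream of 3 members are shown because these genes differed most clearly in 1 culture, NF1 2. Lrrn1 and Lrrn2 were near 0 in every tumour culture, while Nrcam was above every NSC culture in NF1 2. In the other tumour cultures Nrcam had reads but was low, at 0.303% to 6.34% of its NSC mean. The sequences are the bases before the RefSeq transcription start (GRCm38.p6, plus strand), ended where GENCODE M21 begins the gene, with CpG dinucleotides in capitals. Lrrn1 is chr6:107529476-107529725, Lrrn2 chr1:132880105-132880272 and Nrcam chr12:44328635-44328884.
Lrrn1: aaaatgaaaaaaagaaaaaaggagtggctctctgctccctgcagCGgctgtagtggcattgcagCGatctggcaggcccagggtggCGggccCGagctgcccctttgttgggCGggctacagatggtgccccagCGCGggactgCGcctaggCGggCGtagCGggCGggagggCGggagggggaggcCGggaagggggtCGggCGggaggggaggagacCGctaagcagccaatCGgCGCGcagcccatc
Lrrn2: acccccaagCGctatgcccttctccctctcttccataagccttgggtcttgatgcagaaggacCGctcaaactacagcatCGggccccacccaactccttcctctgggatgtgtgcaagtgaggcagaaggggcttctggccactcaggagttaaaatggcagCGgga
Nrcam: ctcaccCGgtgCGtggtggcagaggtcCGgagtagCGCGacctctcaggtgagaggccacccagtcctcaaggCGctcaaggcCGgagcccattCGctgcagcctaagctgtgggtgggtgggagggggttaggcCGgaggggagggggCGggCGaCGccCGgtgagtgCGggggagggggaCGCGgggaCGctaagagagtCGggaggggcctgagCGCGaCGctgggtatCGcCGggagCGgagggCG
The Lrrn1 stretch holds 20 CpG and the Nrcam stretch 25, each in 250 bases, and the shorter Lrrn2 stretch of 168 bases holds 4. In the window of 250 bases before to 50 after the start, Nrcam had 74% GC and a CpG observed/expected ratio of 0.983, above 93.1% of 32851 RefSeq promoters. Lrrn1 had 67.3% GC and a ratio of 0.741, Lrrn2 64% and 0.544, and Chl1 53.7% and 0.628, against medians of 52.7% and 0.384 over all promoters. The GC box GGGCGG, searched on both strands, occurred 4 times in Lrrn1, 2 times in Nrcam, and not in the windows of Lrrn2 or Chl1. It was present in 35.7% of all promoters of this length. L1cam, with few reads in every group, has 2 windows, with 69.3% and 67% GC, ratios of 0.696 and 0.657, and 1 and 2 GC boxes. Cntn1 has 3 windows, with ratios of 0.402, 0.56 and 0.265, and Nfasc has 2, with 0.149 and 0.335, so members lay on both sides of the median. The Nfasc window with 0.335 holds 1 GC box, and its other window and those of Cntn1 hold 0. Windows were found for 7 of the 10 genes.

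Thy1 (ENSMUSG00000032011, GRCm38 chromosome 9, 44043384 to 44048579) had reads in every NSC culture and in no LTR culture. It measured 49.3, 72.6 and 68.8 CPM in NSC 1, 3 and 5, and had 0 counts in LTR 1, 2 and 3. NF1 1 and NF1 3 also had 0 counts, and NF1 2 had 6 counts, or 0.192 CPM. NSC overlapped neither tumour group, and LTR and NF1 overlapped each other. The NSC mean (63.58 ± 12.5 CPM, SD, n = 3) was at least 1980-fold higher than LTR, taking 3 counts in the whole group as the floor, and at least 1350-fold higher than NF1 1 and NF1 3 together. Thy1 also marks T cells and fibroblasts. The T cell genes Cd3e, Cd3g, Cd2 and Cd5 had 0 counts in all 9 libraries and Cd3d at most 0.018 CPM. The other 2 genes of this list had reads: Cd247 was at 3.49, 0.686 and 4.29 CPM in NSC and at most 0.0341 in tumour cultures, and Lck at 0.529 to 2.23 CPM in all libraries. The part of any of these cells in the Thy1 level was not tested. The summed level of 8 fibroblast and mural markers was 1560, 209 and 1950 CPM in NSC 1, 3 and 5, mainly Acta2, Col1a1 and Col1a2. The same sum was 19.5 to 156 CPM in LTR and 7.65 to 41.7 in NF1. The list did not move as one. Pdgfrb averaged 10.25 CPM in NSC, 0.774 in LTR and 0.406 in NF1, but Dcn and Lum averaged only 0.0802 and 0.0745 CPM in NSC. Col3a1 went the other way, with means of 1.03 CPM in NSC, 66.3 in LTR and 4.7 in NF1, and 152 CPM in LTR 1. Rgs5 averaged 0.339 CPM in NSC and reached 38.4 in NF1 2. In bulk RNA, fewer cells of one kind and less RNA per cell cannot be told apart.

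The 3 Lrrn genes, members of one leucine-rich repeat family, did not share one pattern. Lrrn1 (ENSMUSG00000034648, chromosome 6, 107529768 to 107570214) measured 50.8, 24.8 and 49.1 CPM in NSC 1, 3 and 5. In LTR it had 0, 0 and 1 count, and in NF1 0, 9 and 0 counts (0.288 CPM in NF1 2). The NSC to LTR ratio of summed counts was 3670, with an exact 95% counting interval of 658 to 145000. Lrrn2 (ENSMUSG00000026443, chromosome 1, 132880273 to 132940005) was even across NSC at 68.4, 60.3 and 59.3 CPM. It had 0 counts in all 3 LTR cultures, at least 1950-fold below NSC. In NF1 1, 2 and 3 it had 1, 31 and 2 counts, where the 31 counts are 0.992 CPM. Lrrn3 (ENSMUSG00000036295, chromosome 12, 41451668 to 41486431) stayed measurable in every tumour culture. It was at 24.6, 32.5 and 22.4 CPM in NSC, 4.69, 5.42 and 2.21 in LTR and 3.28, 4 and 2.25 in NF1. The tumour cultures overlapped each other and none reached NSC, with log2 differences from NSC of -2.69 ± 0.4 (SE) in LTR and -3.06 ± 0.41 in NF1. Coding sequences of the 3 genes were 58.7% to 62.9% identical, and their longest shared stretch was 17 bases.

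**Figure D1:**
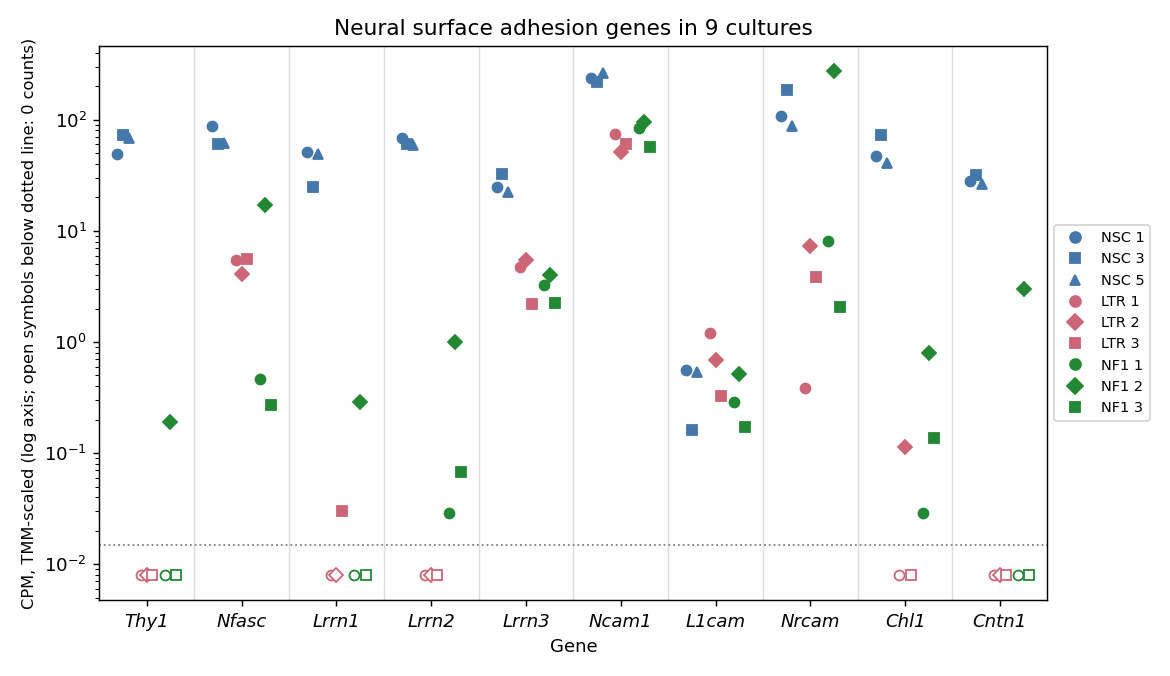
Level of each of the 10 genes in CPM (log axis) in every culture, with colour for the group and symbol shape for the culture number; open symbols below the dotted line stand for 0 counts. NSC cultures lie above all LTR cultures for every gene except L1cam, and the green diamond, NF1 2, is the highest NF1 culture for all 10 genes.

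Within the L1 family each gene followed its own course. Chl1 (ENSMUSG00000030077, chromosome 6, 103510586 to 103750211), the close homologue of L1, measured 47.5, 72.7 and 41 CPM in NSC. It had 0, 3 and 0 counts in LTR and 1, 25 and 4 counts in NF1, so no tumour culture passed 0.8 CPM. The NSC to LTR ratio of summed counts was 1760 (exact 95% counting interval 600 to 8510). Nfasc (ENSMUSG00000026442, chromosome 1, 132564690 to 132741797) measured 86.9, 61 and 61.7 CPM in NSC 1, 3 and 5. LTR cultures were alike at 5.43, 4.08 and 5.61 CPM, and NF1 cultures were not, at 0.464, 17.1 and 0.273 CPM. NF1 1 and NF1 3 were thus below every LTR culture and NF1 2 above every LTR culture. The log2 difference from NSC was -3.79 ± 1.24 in LTR and -3.56 ± 1.23 in NF1, and without NF1 2 the latter was -7.53. Counts per gene join the neuronal and glial isoforms of neurofascin, which cannot be read apart here.

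Nrcam (ENSMUSG00000020598, chromosome 12, 44328885 to 44601964), which encodes the neuronal cell adhesion molecule NrCAM, was low in 5 of 6 tumour cultures and high in the other. It measured 109, 184 and 87.9 CPM in NSC 1, 3 and 5 and 0.385, 7.29 and 3.85 CPM in LTR 1, 2 and 3. NF1 1 and NF1 3 had 8.06 and 2.08 CPM, and NF1 2 had 273.6 CPM, more than any NSC culture and 34-fold above NF1 1. The log2 difference from NSC was -5.06 ± 1.68 in LTR. In NF1 it was -0.43 ± 1.41 with all cultures and -4.63 without NF1 2. L1cam (ENSMUSG00000031391, chromosome X, 73853778 to 73896105), the founding gene of the family, was barely expressed anywhere. It had 21, 9 and 20 counts in NSC, 41, 18 and 11 in LTR and 10, 16 and 5 in NF1, which is 0.162 to 1.22 CPM. The 3 groups overlapped. Its exons share 100 bases with Arhgap4, so some of these reads may not be its own. Coding sequences within the family were 58.4% to 62% identical, with a longest shared stretch of 20 bases.

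Ncam1 (ENSMUSG00000039542, chromosome 9, 49502136 to 49798925) had the highest mean level per exon length of the 10 genes in each group. It measured 235.5, 216.2 and 265.8 CPM in NSC, 74.8, 51.4 and 60 in LTR and 84.7, 96 and 56.9 in NF1. All tumour cultures were below all NSC cultures, and LTR and NF1 overlapped. The log2 difference from NSC was -1.95 ± 0.24 in LTR and -1.59 ± 0.24 in NF1. Its exons share 417 bases with the antisense gene Gm11149, and whether reads were counted by strand is not known here. Cntn1 (ENSMUSG00000055022, chromosome 15, 92051165 to 92341967) was even in NSC at 27.9, 31.8 and 26.6 CPM. It had 0 counts in every LTR culture and in NF1 1 and NF1 3, and 94 counts (3.01 CPM) in NF1 2. NSC was at least 897-fold above LTR and at least 612-fold above NF1 1 and NF1 3 together.

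Per kilobase of exon, the NSC order was Ncam1 (27.6 ± 2.88 CPM per kb), Thy1 (21.2 ± 4.18), Lrrn2 (17.4 ± 1.39), Lrrn1 (11.2 ± 3.92), Nrcam (9.51 ± 3.81), Lrrn3 (6.85 ± 1.37), Nfasc (4.94 ± 1.04), Chl1 (4.37 ± 1.36), Cntn1 (3.05 ± 0.286) and L1cam (0.0569 ± 0.0302), each as mean and SD of 3 cultures. Libraries of neighbours in this order overlapped except between Ncam1 and Thy1, between Lrrn2 and Lrrn1, and between Cntn1 and L1cam. In LTR the order was Ncam1 (7.16 ± 1.37), Lrrn3 (1.06 ± 0.435), Nfasc (0.356 ± 0.059), Nrcam (0.288 ± 0.258) and L1cam (0.101 ± 0.0608), with the other 5 at or below 0.0031 CPM per kb. In NF1 it was Ncam1 (9.14 ± 2.32), Nrcam (7.08 ± 11.6), Lrrn3 (0.822 ± 0.227) and Nfasc (0.419 ± 0.681), with the other 6 at or below 0.106 and all neighbours overlapping. L1cam was last in NSC but in LTR lay above all of Chl1, Lrrn1, Thy1, Lrrn2 and Cntn1. Lengths are the union of all annotated exons, which can understate genes with many long isoforms.

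Of the 10 genes, 9 were lower and 0 higher in LTR against NSC at an adjusted p under 0.05 (edgeR quasi-likelihood test), where 20.9% of all tested genes were lower. In NF1 against NSC 6 were lower and 0 higher, where 13.1% of all tested genes were lower. The 4 that did not pass in NF1 were Nfasc, L1cam, Nrcam and Cntn1. Without NF1 2 there were 9 lower, with 24.5% of all tested genes lower. In LTR, the calls of Nfasc and Nrcam were lost on leaving out any single NSC or LTR library, at log2 differences of -3.88 to -3.54 and -5.78 to -4.51. Thy1, Lrrn1, Lrrn2, Chl1 and Cntn1 reached the level of the count filter in all 3 NSC libraries and in 0 LTR libraries. Their lower value in LTR was thus fixed by the filter. In NF1, Lrrn2, Chl1 and Cntn1 reached it in 1 library and Thy1 and Lrrn1 in 0, so the filter favoured a lower value there. Nothing is read from these counts. In NF1 against LTR no member passed, and of all genes tested 0.0% did (edgeR). At an unadjusted p under 0.05 (edgeR) there were 4 of the 10 members and 1596 genes, or 10.2% of all tested genes. This count too is a description only. DESeq2 called 330 genes (1.26% of all genes higher, 0.841% lower) and limma-voom 1 (0.00637% lower), and neither called a member. The libraries of LTR lay wholly below those of NSC for 9 members (all but L1cam) and for 32.0% of all genes. Those of NF1 did so for 8 members (all but L1cam and Nrcam) and for 23.7% of all genes. Between the tumour groups, Lrrn2 alone had all NF1 libraries above all LTR libraries, as 7.21% of all genes did. Without NF1 2, Nfasc was lower in NF1 than in LTR (log2 difference -3.74), where 0.165% of all genes were lower.

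NF1 2 was the highest NF1 culture for 10 of 10 members. It was the highest for 48.4% of all 15696 tested genes and for 81.1% of the 3288 genes that were lower in LTR than in NSC. Its level relative to the NSC mean differed by gene: 0.302% for Thy1, 0.693% for Lrrn1, 1.49% for Chl1, 1.58% for Lrrn2, 10.5% for Cntn1, 15.1% for Lrrn3, 24.4% for Nfasc, 40.1% for Ncam1, 122% for L1cam and 215% for Nrcam. The members thus held no common share of their NSC level in this culture. Lrrn3 and Ncam1 were only 1.22-fold and 1.13-fold above the next NF1 culture, Nfasc and Nrcam 36.8-fold and 34-fold. Marker sums moved in this culture as well. Oligodendrocyte lineage markers summed to 952 CPM in NF1 2, mainly Olig1 at 840, against 204 and 109 in NF1 1 and NF1 3, 86.6 to 149 in LTR and 1950 to 2460 in NSC. Neuron markers summed to 1680 CPM in NF1 2, 785 to 1210 in the other NF1 cultures, 411 to 1020 in LTR and 425 to 515 in NSC. The neurofilament genes Nefl and Nefm made up most of this sum in NF1 2, at 915 and 680 CPM. The neuronal gene Rbfox3 had 0 counts in all tumour libraries and 0, 2 and 0 counts in NSC 1, 3 and 5. Other markers of the list were lower in tumour cells: Map2 averaged 208 CPM in NSC, 5.4 in LTR and 6.77 in NF1, and Stmn2 averaged 145, 4.54 and 2.72 CPM. Microglia and myeloid markers summed to at most 6.08 CPM and endothelial markers to at most 7.52 CPM in any library. The part of these cells in the members' levels was not tested.

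**Figure D2:**
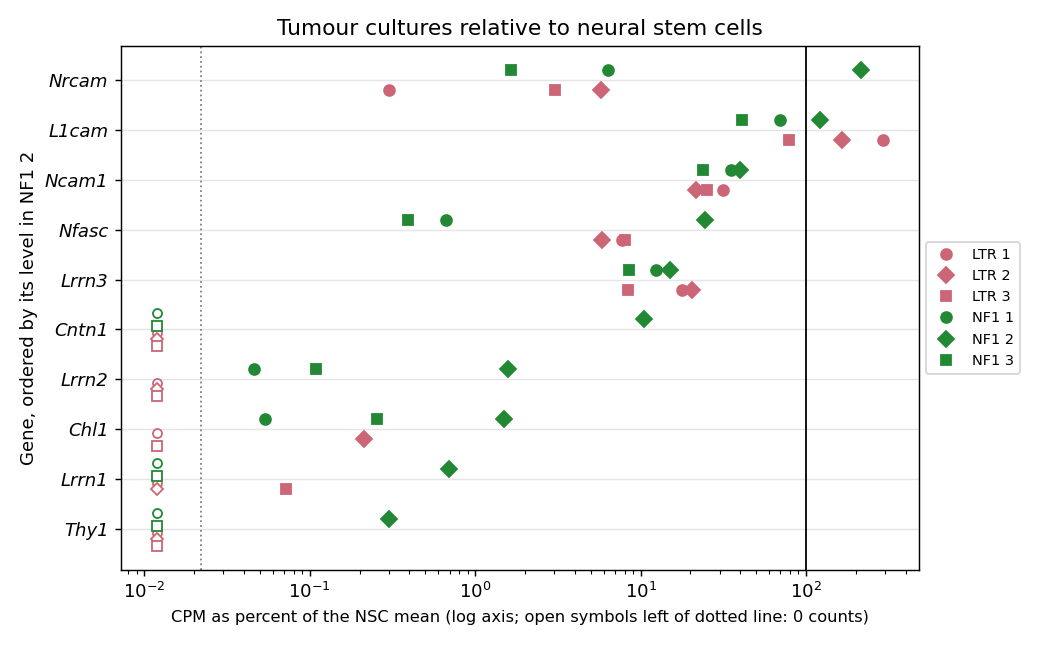
CPM of each tumour culture as a percent of the NSC mean (log axis), with genes ordered by their level in NF1 2, the vertical line at the NSC mean, and open symbols at the left for 0 counts. NF1 2 runs from 0.302% for Thy1 to 215% for Nrcam, while NF1 1 and NF1 3 stay at or below 6.34% for Nrcam.

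Over the 9 libraries, the genes most like each member were found by Pearson correlation of log2 CPM among 10285 genes, as a description, since 9 libraries in 3 groups give many genes a like profile. Thy1 was most like Gabrg1 (r = 0.997), Lrrn1 (0.994) and Gng12 (0.994), and 324 genes reached 0.95. Lrrn2 was most like Slc1a3 (0.998), a glutamate transporter of radial glia, and Chl1 was also most like Slc1a3 (0.996), then Sparcl1 (0.995) and Lrrn2 (0.994). As many as 467 genes reached 0.95 with Lrrn2 and 342 with Chl1, so the top match marks no particular tie. Cntn1 was most like Dbx2 (0.999), Hepacam (0.998) and Mmd2 (0.998), Lrrn1 most like Frmd3, Fas and Gria2 (0.997 each), and Ncam1 most like Neurl1b (0.996). For these 3 members 539, 359 and 357 genes reached 0.95. Nfasc was most like Zfp521 (0.992) and Nrcam most like Podxl2 (0.99), with 64 and 70 genes at 0.95 or more. Lrrn3 was most like Chst2 (0.991), with 69 genes at 0.95 or more. L1cam had no gene at 0.95, and its closest was Crocc (0.838). Among members, Thy1, Lrrn1, Lrrn2 and Chl1 correlated with each other at 0.984 to 0.994, and Nrcam with the other 8 besides L1cam at 0.664 to 0.866.

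The rule did not use position, and 3 times a Lrrn gene and an L1 family gene lie on one chromosome. Lrrn2 and Nfasc are 138.5 kb apart on chromosome 1 with no coding gene between them. Lrrn3 and Nrcam are 2842.5 kb apart on chromosome 12 with 2 coding genes between, and Chl1 and Lrrn1 3779.6 kb apart on chromosome 6 with 5 between, among them the contactin genes Cntn6 and Cntn4. The members of such a pair did not always reach like levels: in LTR, Lrrn2 had 0 counts while Nfasc kept 4.08 to 5.61 CPM. The nearest tested coding gene on each side of each member, 18 genes that are not members, was then compared between groups. Genes whose span overlaps that of a member were not considered, so a gene that lies around a member is left out. In LTR 2 of the 18 were higher, 8 lower and 8 did not pass (edgeR quasi-likelihood test, where 35.9% of all genes passed), with a median log2 difference of -0.81 against -0.06 for all genes. In NF1 2 were higher, 6 lower and 10 did not pass (23.1% of all genes passed), with a median of -0.29 against 0. Cntn3 and Cntn6 passed the count filter through NSC alone, and Plet1, one of the higher genes, through tumour libraries alone, so their directions were fixed by the filter. Pdzrn4 reached the level of the filter in the NSC libraries and in 1 tumour library, which favours a lower value in tumour cells. Among the other 14, 1 was higher in each line, and 5 were lower in LTR and 3 in NF1. Of all tested genes, 20.9% were lower in LTR and 13.1% in NF1, and nothing is read from counts this small.

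Some neighbours of members near 0 in tumour cells did not pass the test. Crbn, on the lower side of Lrrn1, measured 31.18 ± 2.2 CPM (SD, n = 3) in NSC, 30.99 ± 2.37 in LTR and 32.41 ± 4.09 in NF1 (edgeR adjusted p = 0.975 and 0.843). Mdm4, which encodes an inhibitor of p53 and lies 19.5 kb from Lrrn2, measured 72.74 ± 18 CPM in NSC, 62.9 ± 17.3 in LTR and 64.63 ± 14.3 in NF1 (adjusted p = 0.581 and 0.687). Others were lower too. Chl1 lies between Cntn3 and Cntn6, genes of contactins. Cntn6 measured 3.313 ± 0.44 CPM in NSC and 0.1259 ± 0.0905 in LTR, and had 1 count in all NF1 libraries together, an NSC to NF1 ratio of 309 (exact 95% counting interval 55.1 to 12200). Cntn3 had 0 counts in LTR, at least 45.8-fold below NSC. Usp2, a ubiquitin protease gene 18.4 kb from Thy1, measured 42.53 ± 1.47 CPM in NSC, 1.641 ± 0.202 in LTR and 6.013 ± 6.61 in NF1 (adjusted p = 0.00294 and 0.021). Cntn1 had neighbours of opposite sign. Pdzrn4 was 537-fold lower in LTR by summed counts (exact 95% counting interval 96.1 to 21200), while Lrrk2, the leucine-rich repeat kinase gene, rose, with 32.64 ± 4.29 CPM in NSC, 193.5 ± 92.6 in LTR and 190.6 ± 58.9 in NF1 (adjusted p = 0.00205 and 0.00296).

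**Figure D3:**
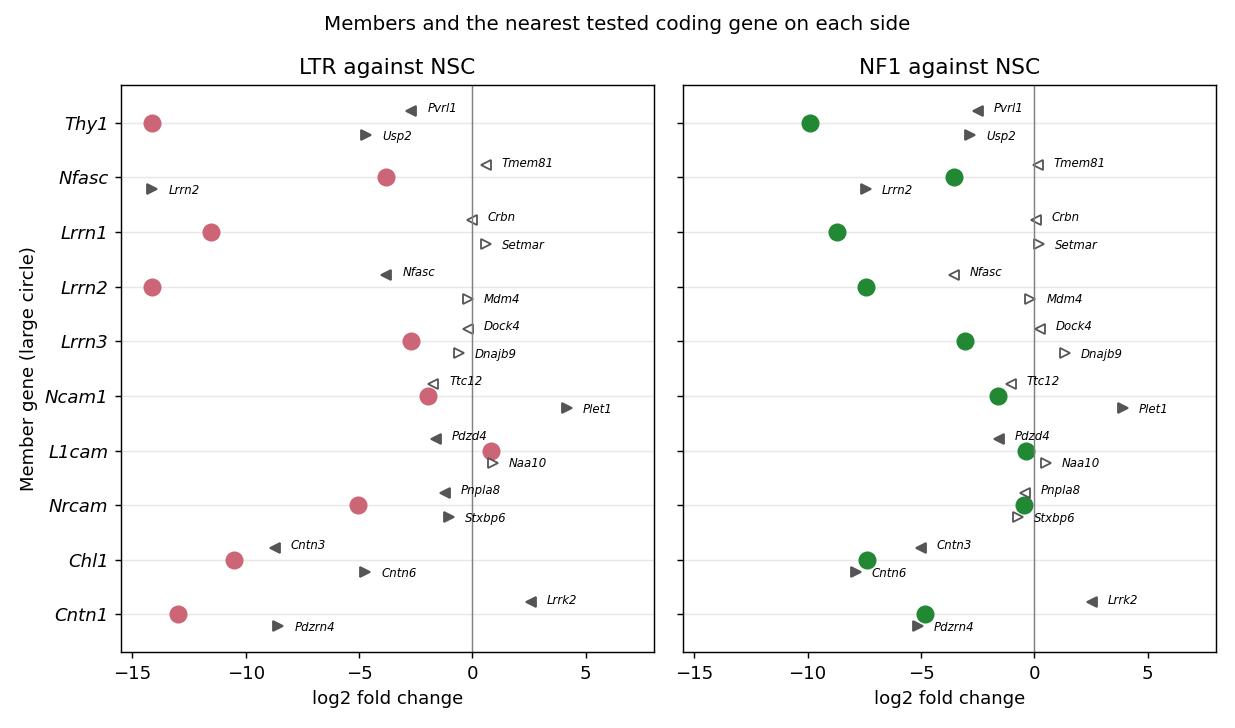
Fitted log2 fold change against NSC of each member (large circle) and of the nearest non-overlapping tested coding gene on each side. Left triangles stand for lower and right triangles for higher coordinates, with filled triangles for genes past the edgeR threshold. Circles of genes with 0 counts in a group depend on the prior count of the fit. Neighbours lie on both sides of 0 in each line, 2 higher and 8 lower in LTR and 2 higher and 6 lower in NF1.

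Related genes were read from 3 lists chosen by family or function with earlier results of these libraries known. Their p-values are adjusted over all tested genes and are no independent support for the choice of a list. Of 29 other immunoglobulin family adhesion genes 23 could be tested. In LTR 20 were lower and 1 higher, and in NF1 13 were lower and 1 higher, with median log2 differences of -2.71 and -2.52 against -0.06 and 0 for all genes. Of the 23, 8 reached the level of the count filter in fewer than 3 tumour libraries. They passed it only with NSC libraries, which favours a lower value in tumour cells. All 8 were called lower in LTR and 6 of them in NF1. Among the other 15, 12 were lower in LTR and 7 in NF1. Of all tested genes, 20.9% were lower in LTR and 13.1% in NF1, or 24.5% in NF1 without NF1 2. With all 23, lower genes numbered 13 in LTR without LTR 3, and in NF1 8 without NSC 1 or NF1 1 and 20 without NF1 2. Dscam, a homophilic adhesion molecule that sorts neuronal processes, measured 6.213 ± 2.2 CPM in NSC (n = 3) and had 0 counts in LTR, at least 194-fold lower. It was at 0.1327 ± 0.0879 CPM in NF1. Dscam reached the filter in NSC alone. Kirrel3, a nephrin-like adhesion gene, went from 53.02 ± 9.67 CPM in NSC to 20.68 ± 3.12 in LTR (log2 -1.36 ± 0.22, adjusted p = 0.00267). Alcam (CD166), which binds itself and the T cell protein CD6, was the one gene of this list that rose. It measured 66.3, 36.3 and 70.7 CPM in NSC 1, 3 and 5, 186, 163 and 220 in LTR and 244, 359 and 198 in NF1, with every tumour culture above every NSC culture (log2 2.21 ± 0.31, adjusted p = 0.00241 in NF1). Pvrl2 in LTR (41.63 ± 14.6 against 28.64 ± 3.82 CPM, adjusted p = 0.142) and Cadm1 in NF1 (170.1 ± 73.4 against 224.6 ± 22.5, adjusted p = 0.316) were the most abundant genes that did not pass. Cadm1 was lower by -0.8 on the log2 scale and passed without NF1 2.

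Of 33 other leucine-rich repeat membrane genes 29 could be tested. In LTR 15 were lower and 1 higher, and in NF1 9 were lower and 1 higher, with median log2 differences of -1.88 and -0.91. Of the 29, 8 reached the level of the filter in fewer than 3 tumour libraries, and among the other 21, 9 were lower in LTR and 3 in NF1. Of all tested genes, 20.9% were lower in LTR and 13.1% in NF1, or 24.5% in NF1 without NF1 2. The 3 of 21 in NF1 lie near the share of all genes. With all 29, lower genes numbered 9 in LTR without LTR 3 and 19 in NF1 without NF1 2. Lrrc4b, which encodes a synaptic adhesion molecule (NGL-3), measured 106, 131 and 102 CPM in NSC and 0.356, 0.114 and 0.0896 in LTR 1, 2 and 3 (log2 -9.18 ± 1.21, edgeR adjusted p = 0.00137). In NF1 it was at 0.956, 7.71 and 0.41 CPM, again highest in NF1 2 (log2 -5.22 ± 0.97, adjusted p = 0.00651), and the difference without NF1 2 was -7.33. Lrrc4, its relative, measured 17.38 ± 5.63 CPM in NSC, 2.028 ± 0.536 in LTR and 2.185 ± 0.178 in NF1 (adjusted p = 0.0011 and 0.00161). Islr2 had 42, 76 and 78 counts in NSC and 1 count over all LTR libraries and 3 over all NF1 libraries, so it too passed the filter through NSC alone. The gene that rose was Amigo2, named after its values were seen, with means of 16.6 CPM in NSC, 43.6 in LTR and 37.9 in NF1. In NF1 it was not called without NSC 1, NSC 5, NF1 1 or NF1 3. The most abundant genes that did not pass were Flrt2 in LTR (32.85 ± 6.63 against 26.71 ± 0.96 CPM, adjusted p = 0.262) and Lrig1 in NF1 (247.8 ± 131 against 537.1 ± 140 CPM, adjusted p = 0.0532), and Lrig1 passed without NF1 2 (log2 -1.59) and with DESeq2 or limma-voom.

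**Figure D4:**
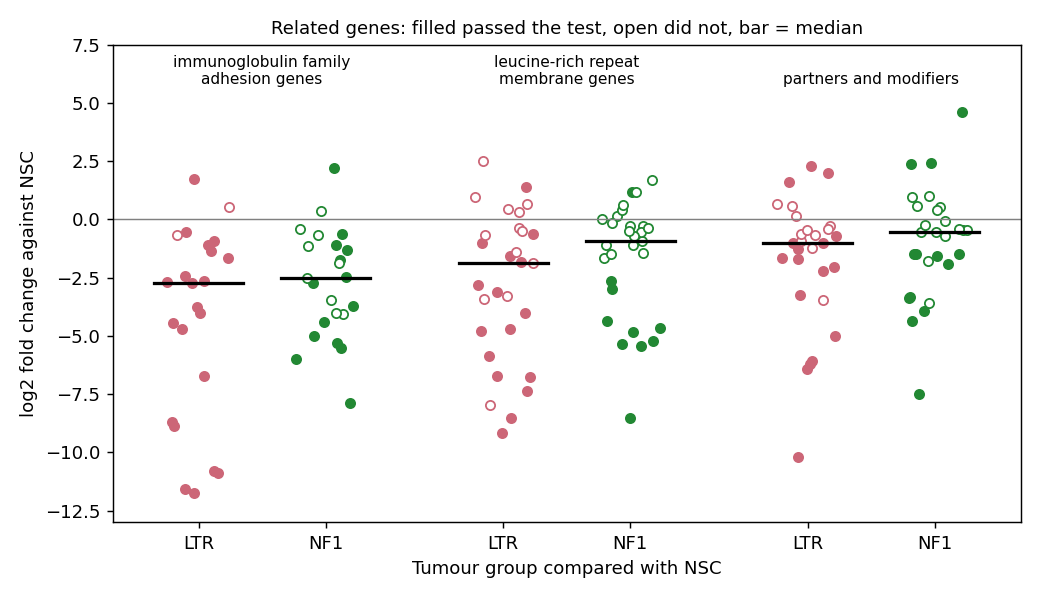
log2 fold change against NSC of every tested gene of the 3 lists of related genes, in LTR and in NF1, with filled points for genes past the edgeR threshold, open points for the others and a bar at the median. Medians run from -2.71 (immunoglobulin family, LTR) to -0.55 (partners and modifiers, NF1), and points above 0 occur in every list.

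The last list holds 28 partners and modifiers of the adhesion molecules, all of which could be tested. In LTR 14 were lower and 3 higher, and in NF1 10 were lower and 3 higher, with median log2 differences of -1.01 and -0.55. Of the 28, 2 reached the level of the filter in fewer than 3 tumour libraries, and among the other 26, 12 were lower in LTR and 8 in NF1. Of all tested genes, 20.9% were lower in LTR and 13.1% in NF1, or 24.5% in NF1 without NF1 2. With all 28, lower genes in NF1 numbered 6 without NF1 1 and 16 without NF1 2. The 3 higher genes in either line were Cntnap4, Nrp2 and Itgb3, the first and last named after their values were seen. Their number in LTR was 0 without NSC 1, 1 without NSC 5 or LTR 1 and 0 with the replicate number as a block, and in NF1 1 without NSC 1, 1 with the block, and 5 higher genes without NF1 3. Ank2, an ankyrin that binds L1 family proteins, measured 305 ± 26.2 CPM in NSC, 32.38 ± 17.3 in LTR and 29.14 ± 11.9 in NF1 (log2 -3.23 ± 0.42 and -3.39 ± 0.43, edgeR adjusted p = 0.00132 and 0.00165). Tnr, tenascin-R, a matrix ligand of Cntn1, went from 20.92 ± 4.57 CPM to 0.2391 ± 0.128 in LTR (log2 -6.41 ± 0.8, adjusted p = 0.00128). St8sia2, an enzyme that puts polysialic acid on NCAM, measured 72, 5.4 and 91.1 CPM in NSC 1, 3 and 5, and at most 2.4 CPM in any tumour culture (log2 -7.48 ± 1.1 in NF1, adjusted p = 0.00264). St8sia4, the other such enzyme, was named after its values were seen, at 22.8 CPM in NF1 2, 9.65 in NSC 3 and at most 2.56 elsewhere. Itgav, the integrin chain that pairs with Itgb3 to bind Thy1 and L1, went from 719.8 ± 18.9 to 156.6 ± 42.4 CPM in LTR (adjusted p = 0.00182), while Itgb3 was among the 3 that rose. Nrp2, a semaphorin receptor, measured 11.1, 4.1 and 9.36 CPM in NSC, 46.4, 35.4 and 39.9 in LTR, and 128, 411 and 50.5 in NF1, with no tumour culture as low as NSC (log2 4.59 ± 0.74 in NF1, adjusted p = 0.00382, and 3.46 without NF1 2). Itgb1, the most abundant gene that did not pass, measured 1316 ± 66 CPM in NSC, 980.7 ± 127 in LTR and 948.2 ± 104 in NF1 (edgeR adjusted p = 0.116 and 0.109), and DESeq2 called it lower in both (adjusted p = 0.0305 and 0.0113). In NF1 against LTR no gene of the 3 lists passed the edgeR test, and DESeq2 called 2 immunoglobulin family genes and 4 partners and modifiers higher. DESeq2 called 1.26% of all genes higher there.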

How the data were processed

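RNA sequencing libraries of 9 mouse cultures in 3 groups were analysed. The authors deposited raw counts for each gene, made with tools that the submitters' processing notes name as STAR 2.5.2a, HTSeq and DESeq2 1.8.2, with GRCm38 and mm10. For the annotation release, counting mode and strand, nothing was found in the labels. Library totals of 28600479 to 57231024 per library set the counting precision, and intervals and floors (3 counts) cover counting error only. One edgeR 4.0.16 quasi-likelihood model (R 4.3.3, TMM, filterByExpr with a minimum count of 10) was fitted to all 9 libraries, and p-values were Benjamini-Hochberg adjusted over 15696 genes, with a threshold of 0.05. The script was tested on simulated data. SE was derived from the F statistic. Correlations between profiles used log2 of CPM plus 0.1, for genes with a mean of at least 5 CPM. Positions, exon lengths and coding sequences (longest coding transcript, aligned with Biopython 1.88) came from GENCODE M21 (GRCm38), and promoters from RefSeq (GRCm38.p6). Genes were named by a rule: all members, up to 3 related genes per list and comparison by smallest adjusted p, the highest-expressed one that did not pass, and the nearest neighbours. Genes outside it are marked. The members and lists were chosen with earlier results of these data known. Alternatives were DESeq2 1.42.0, limma-voom (limma 3.58.1), other scaling factors and filters, fits of the 6 libraries compared, a replicate block, and left-out libraries.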

Additional observations from a re-analysis of the deposited data

How the results depend on the processing

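Under 18 alternative settings, 7 to 9 members were lower in LTR and 6 to 9 in NF1 than in NSC. The share of all genes called moved as well: in NF1 13.1% were lower in the main fit and 24.5% without NF1 2. Shares of the other settings are mostly not given here, so nothing about the members is read from their counts in this section. With a filter of 10 CPM in 3 libraries, fewer genes could be tested, and the lower genes numbered 10 (immunoglobulin family) and 6 (leucine-rich repeat) in LTR and 6, 2 and 6 in the 3 lists in NF1. Scaling by DESeq2 size factors, DESeq2, limma-voom and the fit of 6 libraries each gave 2 higher leucine-rich repeat genes in LTR in place of 1, and the fit of 6 libraries gave 0 in NF1. The replicate block gave 0 higher partners in LTR, 1 in NF1 and 0 higher leucine-rich repeat genes in NF1; it called 8 members lower in NF1, adding Nfasc and Cntn1. As the deviations of same-numbered cultures correlated at -0.185 to 0.121, the numbers are not read as pairs. With NF1 2 and NSC 3 both left out, lower genes in NF1 numbered 20 (immunoglobulin family) and 18 (leucine-rich repeat), 2 leucine-rich repeat genes were higher in LTR, and 1 member, Nfasc, was lower in NF1 than in LTR. DESeq2 called 2 immunoglobulin family genes and 4 partners higher in NF1 than in LTR. With single libraries left out, lower genes in LTR ran from 13 to 20 (immunoglobulin family) and 9 to 22 (leucine-rich repeat), and in NF1 from 8 to 20, 7 to 19 and 6 to 16 (partners). Higher genes ran from 1 to 2 (leucine-rich repeat) and 0 to 3 (partners) in LTR and from 0 to 1 and 1 to 5 in NF1, and members lower in NF1 than LTR from 0 to 1. Over the same fits the log2 difference of Nrcam in NF1 against NSC ran from -4.63 to 0.12, and in NF1 against LTR those of Nfasc from -3.74 to 0.78, Lrrn1 from -2.03 to 4.82 and Itgb1 from -0.18 to 0.02. In NF1 against LTR, Nfasc turned from 0.23 to -1.92 (limma-voom), -2.1 (replicate block), -3.74 (without NF1 2) and -3.75 (without NF1 2 and NSC 3), and Lrrn1 from 2.8 to -2.03 and -1.95 under the last 2. Itgb1 there turned from -0.05 to 0.02 without LTR 1, and Nrcam in NF1 against NSC from -0.43 to 0.12 without NF1 1 and 0.06 without NF1 3. Unless stated, the cause was not tested. DESeq2 gave 2 members no adjusted p in each comparison.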
